A study of Homo sapiens with 6 samples.

Results

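Vasoactive peptide systems were followed through 10 genes, chosen by symbol: *EDN1*, *EDNRA*, *EDNRB* and *ECE1* of the endothelin system, *NPPB*, *NPPA*, *NPR2*, *NPR3* and *FURIN* of the natriuretic peptide system, and *ADM*, which encodes adrenomedullin. All 10 are among the 22701 genes of the deposited table. Of them, 7 reached a mean of at least 1 FPKM (fragments scaled to gene length and library total) over the 6 libraries and were tested. *EDNRA*, *EDNRB* and *NPPA* stayed under that level and are described by their values. The 10 genes were chosen with earlier results of these data known.

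The libraries hold polyadenylated RNA of LX-2, an immortalised line of human hepatic stellate cells, the pericytes of the liver that turn into matrix-producing myofibroblasts in fibrosis. Both groups received TGF-β, the main fibrogenic cytokine, at a labelled dose of 5 µg/mL, a unit that was not checked. TGF-β alone was given in 3 libraries (the TGF-β group), and TGF-β with 20 µM LIG in 3 (the LIG group). LIG is ligustilide, a phthalide of Angelica and Ligusticum roots. The comparison shows how the RNA of these genes differs when LIG is added to TGF-β. Cells without TGF-β were not analysed here, and the labels give no treatment time. Whether replicates came from separate cultures is not said in the labels, and the p-values thus measure the spread between these libraries, which may be technical. A single cell line stands for each group.

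Endothelin-1 is cut from a larger precursor, first by furin-type proteases and then by endothelin-converting enzyme 1 (*ECE1*), and acts on 2 G protein-coupled receptors, ETA (*EDNRA*) and ETB (*EDNRB*). In the liver it makes stellate cells contract and raises the tone of the sinusoids. B-type natriuretic peptide (*NPPB*) and atrial natriuretic peptide (*NPPA*) come from precursors cut by furin and corin, respectively. They act mainly through the guanylyl cyclase receptor NPR1, whereas NPR2 is the guanylyl cyclase receptor of C-type natriuretic peptide and NPR3 clears natriuretic peptides from the surroundings. Natriuretic peptides and adrenomedullin relax vessels and oppose endothelin-1.

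The results turn on *EDN1* and *NPPB*, so the bases that code for their mature hormones are shown first, from the GENCODE release 29 transcripts. The 21 codons of endothelin-1 are codons 53 to 73 of 212 in the *EDN1* coding sequence and lie in exon 2 of 5 (GRCh38, chr6:12292433-12292495, plus strand). The 32 codons of B-type natriuretic peptide are codons 103 to 134, the last of the *NPPB* coding sequence, and run over exons 2 and 3 of 3 (chr1:11858214-11858295 and chr1:11857658-11857671, minus strand). Capitals mark the cysteine codons, at positions 1, 3, 11 and 15 of endothelin-1 and 10 and 26 of B-type natriuretic peptide, whose disulfide bonds shape both hormones.
EDN1: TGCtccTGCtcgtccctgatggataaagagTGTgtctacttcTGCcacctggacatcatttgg
NPPB: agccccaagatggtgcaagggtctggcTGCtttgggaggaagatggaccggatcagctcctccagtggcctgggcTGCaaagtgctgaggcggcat

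The promoter of *EDN1* is shown as well, since *EDN1* fell and the known regulators of this promoter (AP-1, GATA factors, HIF and SMADs) have short core motifs that can be searched. RefSeq promoter entries (GRCh38.p14) matched 9 of the 10 genes, all but *NPPB*. They list 3 starts for *EDN1*, and the one nearest to the GENCODE start of the gene is shown. The 250 bases before the start of *EDN1* at position 12290361 of chromosome 6 (chr6:12290111-12290360, plus strand) are given 5′ to 3′, with every match to the searched motifs in capitals.
EDN1 promoter: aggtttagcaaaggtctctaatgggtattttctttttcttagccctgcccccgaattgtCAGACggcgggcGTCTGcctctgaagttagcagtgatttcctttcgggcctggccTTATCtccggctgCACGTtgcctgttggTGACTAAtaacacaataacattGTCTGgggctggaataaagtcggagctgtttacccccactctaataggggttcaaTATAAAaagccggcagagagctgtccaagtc
Both strands were searched for 6 motifs. The AP-1 variant TGACTAA matched at bases 108 to 102 before the start, and 1.62% of 35116 promoter windows of the same length hold it. GATAA, the GATA core, matched on the minus strand at 136 to 132 (20.4% of windows). The HIF core ACGTG matched on the minus strand at 123 to 119 (18.5% of windows). The SMAD core CAGAC matched 3 times, at 191 to 187, 179 to 175 and 86 to 82 (38.0% of windows). TATAAA matched at 31 to 26 (10.7% of windows). The AP-1 consensus TGANTCA, which 6.57% of windows hold, did not match in this window. In the windows before the other 2 starts, at 12288019 and 12290014, ACGTG matched 2 times and CAGAC 2 times in the first and CAGAC 1 time in the second. None of the matches in the window shown overlapped another, and each describes letters, not binding. Matches also lay before starts of tested genes that were not called below: CAGAC for *FURIN* and *ECE1*, GATAA for *FURIN*, and TATAAA for *FURIN* and *ADM*. TGACTAA and ACGTG did not match before these genes, and *NPR2* and *NPR3* held no match. The HIF core also matched before *EDNRB*, and the AP-1 consensus before *NPPA*, genes too low to be tested. The motifs were picked for known regulators of *EDN1*, and *NPPB*, the other called gene, has no promoter entry. These matches therefore cannot tell called genes from the others. A link between the motifs and the change with LIG was not tested.

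Depth was nearly even, from 38401783 to 39260090 fragments per library, and a tested gene held a median of 1493 fragments. TGF-β replicate 2 and LIG replicate 3 stood apart from the other 4 libraries on the first principal component (55.1% of the variance), and their summed FPKM was 348518 and 362034 against 324022 to 328949. The 2 called results below are therefore also given without both. Markers of stellate cells or fibroblasts reached a mean of 1 FPKM for 10 of 11 measured genes (summed FPKM 2893 to 3096 with TGF-β and 2692 to 3100 with LIG, most of it *VIM*), with *DES* at 0 in 4 libraries. Of these 10, 1 passed: *COL3A1*, a fibrillar collagen, was lower with LIG (20.3 against 9.96 FPKM, limma adjusted p = 0.0144). In *COL1A1*, *PDGFRB* and *TAGLN* all LIG libraries were also below all TGF-β libraries (ratios of means 0.756, 0.665 and 0.85), and none of them passed (limma adjusted p = 0.118, 0.257 and 0.509). *TIMP1* lay above (ratio 1.211, adjusted p = 0.563), and *ACTA2*, the smooth muscle actin of activated stellate cells, overlapped at 2.11 to 3.43 FPKM. *COL1A2*, *HAND2*, *VIM* and *THY1* overlapped too (ratios of means 1.43, 1.215, 1.021 and 0.873), and none of them passed. *COL1A2* was uneven within the TGF-β group, at 0.67, 0.71 and 6.73 FPKM, against 5.08, 3.28 and 3.24 FPKM with LIG. Endothelial cells make much of the body's endothelin-1. Their 5 measured markers summed to 0.418 to 0.639 FPKM with TGF-β and 0.348 to 0.544 with LIG, none of them at a mean of 1 FPKM. *TEK* was at 0.213 to 0.331 FPKM, *PECAM1* at 0.113 to 0.295 FPKM, *CDH5* at 0 to 0.0503 FPKM and *STAB2* at 0 in 5 libraries. The heart is the main source of natriuretic peptides. Its 4 measured markers summed to 2.16 to 2.31 FPKM with TGF-β and 1.82 to 2.05 with LIG, nearly all of it *ACTN2* (1.71 to 2.06 FPKM), with *MYH6* at 0 in 5 libraries. The 6 macrophage or leukocyte markers summed to 1.41 to 1.52 and 1.21 to 1.28 FPKM, none at a mean of 1 FPKM. Most of this was *CSF1R* (0.802 to 0.947 FPKM, LIG above) and *CD14* (0.317 to 0.599 FPKM, LIG below), with *MARCO* at 0 in 5 libraries. The 4 hepatocyte markers summed to 3.54 to 4.07 and 3.31 to 4.88, and 4 cholangiocyte markers to 13.6 to 13.9 and 11.2 to 11.9. The hepatocyte sum was nearly all *SERPINA1* (3.2 to 4.86 FPKM). Most of the cholangiocyte sum was *SOX9* (9.8 to 11.93 FPKM, lower with LIG, limma adjusted p = 0.328), then *KRT7* (1.11 to 2.11 FPKM). *EPCAM* and *KRT19* reached at most 0.0659 and 0.1119 FPKM. The part of these marker differences in the results was not tested.

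With LIG, the RNAs of 2 secreted peptides fell: *NPPB* to 0.57 times and *EDN1* to 0.642 times its mean FPKM with TGF-β alone. The receptors and proteases that were tested (*NPR2*, *NPR3*, *ECE1* and *FURIN*) and *ADM* did not pass. By the limma model over all tested genes, 2 of the 7 tested genes were lower and 0 higher (Benjamini-Hochberg adjusted). For comparison, 0.505% of the 10695 tested genes were called lower and 0.187% higher, 0.692% in all. The unadjusted p was below 0.05 for 3 of the 7, against 8.41% of all tested genes. The groups did not overlap in 4 of the 7, 3 with LIG below and 1 with LIG above, against 15.8% of tested genes. The genes were chosen with earlier results of these data known. These shares therefore cannot show that changes gather in these peptide systems. In bulk RNA, fewer cells with a transcript and less of it per cell cannot be told apart.

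**Figure D1:**
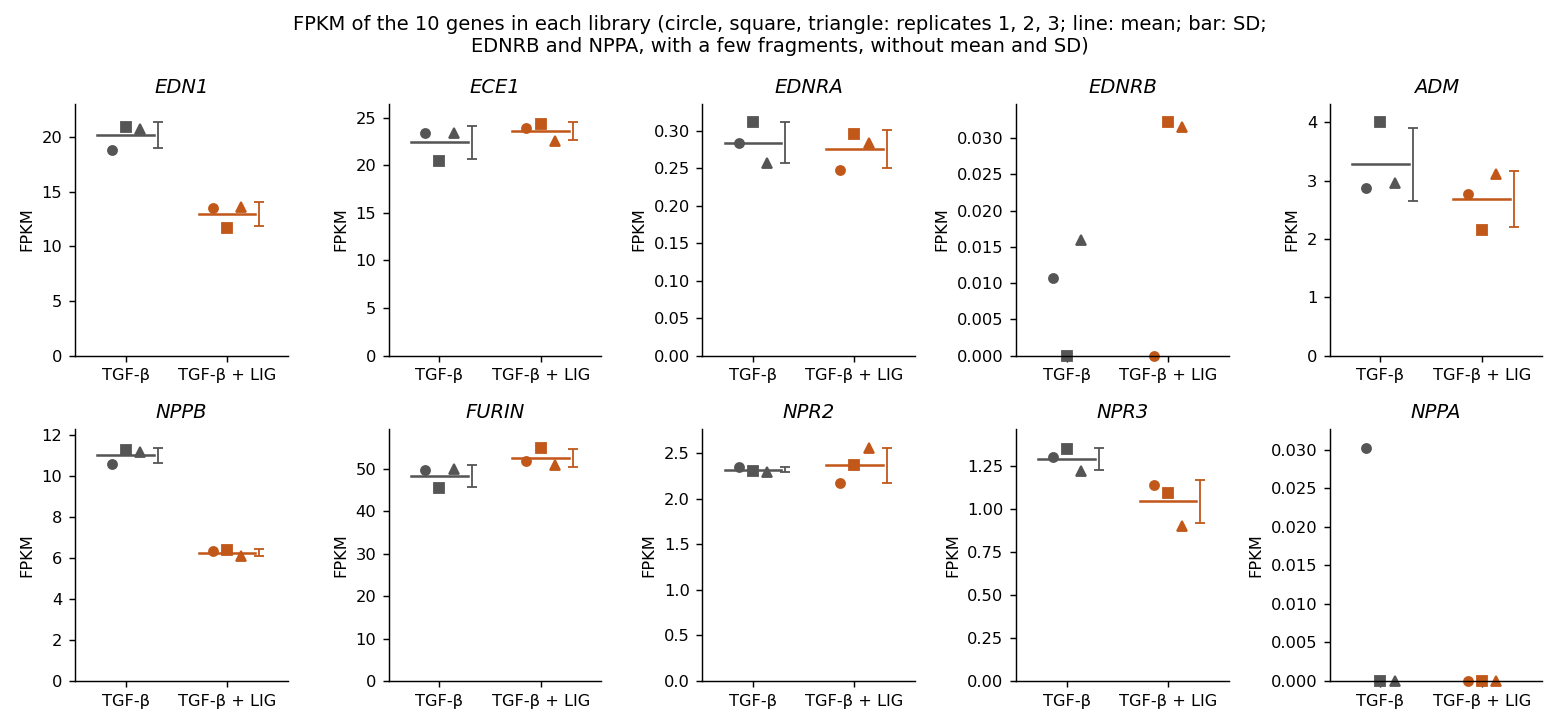
FPKM of the 10 genes in each library, TGF-β in grey and TGF-β with LIG in orange, each axis starting at 0; symbols are replicates, lines means and bars SD (n = 3). The LIG libraries lie below all TGF-β libraries for *EDN1*, *NPPB* and *NPR3* and above them for *FURIN*; *EDNRB* and *NPPA* rest on at most 6 fragments a library and are shown as points alone.

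Of the ligands, *NPPB* (chromosome 1, 11857464 to 11858931, minus strand) showed the tightest values. In replicate order it read 10.55, 11.26 and 11.13 FPKM under TGF-β alone, against 6.32, 6.36 and 6.08 FPKM once LIG was added. All LIG libraries lay below all TGF-β libraries, and the replicates of each group were close together. The means were 10.98 ± 0.381 (SD, n = 3) and 6.26 ± 0.153 FPKM (n = 3). On log2(FPKM + 1) the change was -0.72 ± 0.06 (SE), with a 95% interval from -0.87 to -0.58 (limma adjusted p = 0.00416). These values correspond to 288, 311 and 305 fragments against 173, 173 and 169. The spread between replicates, 3.47% and 2.45% of the mean, was smaller than the 5.76% and 7.63% that counting error alone would give on average. By size, 23 of the 10695 genes (0.215%) changed as much in either direction.

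The *NPPB* call was kept in all 19 alternative fits, with a change between -0.81 and -0.69. Its highest adjusted p was 0.0470, reached when TGF-β replicate 3 was left out. Without TGF-β replicate 2 and LIG replicate 3 it was -0.69 (adjusted p = 0.000388). On recovered fragments, where no pseudocount in FPKM enters, it was -0.81 ± 0.11 (SE; limma voom adjusted p = 0.0164). That SE is larger than the 0.06 of the reported fit, whose interval may thus be too narrow.

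*EDN1* (chromosome 6, 12290363 to 12297194, plus strand), the precursor gene of endothelin-1, was at 18.79, 20.91 and 20.78 FPKM with TGF-β, against 13.53, 11.69 and 13.61 FPKM with LIG. The highest LIG library was below the lowest TGF-β library. The means were 20.2 ± 1.19 and 12.9 ± 1.09 FPKM (SD, n = 3 each), a log2 change of -0.60 ± 0.08 (SE; 95% interval -0.79 to -0.42; limma adjusted p = 0.0175). The fragments were 1920, 2161 and 2130 against 1385, 1189 and 1415. Here the replicates spread by 5.89% and 8.39%, more than the 2.20% and 2.74% of counting error, so the precision was set by the replicates and not by depth.

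The *EDN1* call was less stable than that of *NPPB*. It was lost in 5 of the 6 fits that leave out 1 library, those without TGF-β replicates 1, 2 or 3 (adjusted p = 0.0625, 0.102 and 0.137) and those without LIG replicates 1 or 2 (0.0705 and 0.0720). It held without LIG replicate 3 (adjusted p = 0.0187) and without both libraries that stood apart (change -0.61, adjusted p = 0.00263). Those 2 libraries were picked from these data, and without them 209 genes were called higher and 288 lower, against 20 and 54 in the reported fit. The smaller p-values of that fit are thus not particular to *EDN1* or *NPPB*. The size of the fall stayed between -0.70 and -0.54 over the 19 alternatives.

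**Figure D2:**
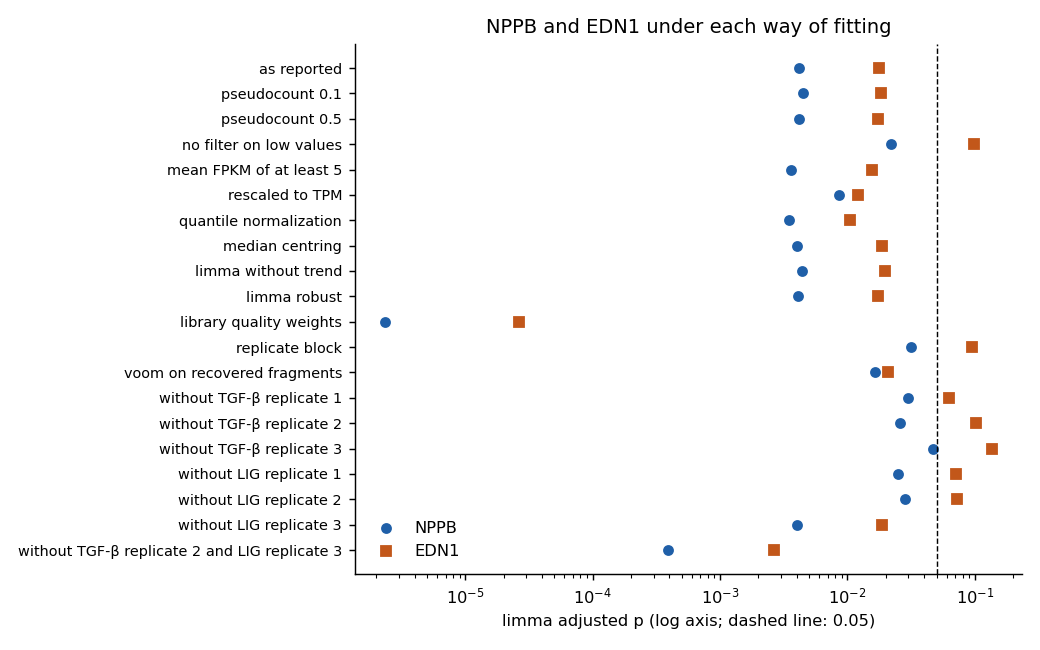
Limma adjusted p (log axis) of *NPPB* (circles) and *EDN1* (squares) in the reported fit and under 19 alternatives, with a dashed line at 0.05. *NPPB* stays left of the line in each row, up to 0.0470, and *EDN1* crosses it in 7 rows, up to 0.137.

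*ADM* (chromosome 11, 10304680 to 10307397, plus strand) encodes adrenomedullin, a vasodilator peptide that is also induced by low oxygen. It was at 2.88, 4.00 and 2.96 FPKM with TGF-β, against 2.77, 2.16 and 3.11 FPKM with LIG. The groups overlapped, and in each group the highest value was in the library that stood apart. The log2 change was -0.22 ± 0.13 (SE; 95% interval -0.51 to 0.08; limma adjusted p = 0.753), an interval that includes 0. With 124 to 233 fragments a library, its replicates spread by 19.0% and 17.8%, against 7.25% and 8.02% from counting. It passed in 1 of 18 alternatives, the one that weights libraries by quality (limma adjusted p = 0.0347). That fit called 1117 of all 10695 tested genes higher and 774 lower.

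*NPPA* lies next to *NPPB* on chromosome 1 (11845709 to 11848345, minus strand), with 9119 bases between the genes. Its RNA was at 0.0303 FPKM in TGF-β replicate 1, which is 1 fragment, and at 0 in the other 5 libraries. No fragment in 3 LIG libraries allows up to 0.0302 FPKM (3 fragments over the group), so no difference was detectable at this depth. At these levels 1 of the 2 neighbouring natriuretic peptide genes, *NPPB*, supplied nearly all their fragments, 904 against 1 with TGF-β and 515 against 0 with LIG. *NPPA* shares exon bases with *CLCN6* on the opposite strand, at 4.32 to 6.41 FPKM, and the use of strand in counting is not given in the sources used here. Exons of *EDNRB*, *NPR2* and *ECE1* also share bases with a gene on the opposite strand, and that of *NPR2*, *SPAG8*, was at 0.069 to 0.179 FPKM.

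The endothelin receptors were low in both groups. *EDNRA* (chromosome 4, 147480917 to 147544954), the receptor for contraction, was at 0.284, 0.311 and 0.257 FPKM with TGF-β and 0.247, 0.295 and 0.284 FPKM with LIG. These are 50 to 61 and 48 to 57 fragments, and the groups overlapped almost fully. *EDNRB* (chromosome 13, 77895481 to 77975529), which also clears endothelin-1, was at 0.0107, 0 and 0.0160 FPKM with TGF-β and 0, 0.0322 and 0.0315 FPKM with LIG. Summed over a group this is 5 fragments (exact Poisson 95% interval 1.62 to 11.67) against 12 (6.20 to 20.96). The intervals overlap, and they cover counting error only. In the fit without a filter, neither passed (limma adjusted p = 0.966 for *EDNRA* and 0.913 for *EDNRB*), and the pseudocount leaves little room for a change at such levels.

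Of the natriuretic peptide receptors, *NPR2* (chromosome 9, 35792154 to 35809732), the guanylyl cyclase for C-type natriuretic peptide, was at 2.35, 2.31 and 2.30 FPKM with TGF-β and 2.17, 2.37 and 2.56 FPKM with LIG. The TGF-β values all fell inside the LIG range. The log2 change was 0.02 ± 0.07 (SE; 95% interval -0.14 to 0.18; limma adjusted p = 0.984), and its sign turned to -0.001 with median centring and to -0.02 without LIG replicate 3. *NPR3* (chromosome 5, 32689070 to 32791724), the clearance receptor, was at 1.30, 1.35 and 1.22 FPKM with TGF-β and 1.14, 1.09 and 0.90 FPKM with LIG. All LIG libraries were below all TGF-β libraries, which was so for 6.73% of tested genes. The log2 change of -0.17 ± 0.07 (SE; 95% interval -0.33 to -0.001) did not pass (limma adjusted p = 0.588), and the pseudocount of 1 FPKM makes it smaller than the ratio of means, 0.809. On recovered fragments the change was -0.31 (limma voom adjusted p = 0.491).

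The 2 proteases were the most abundant of the 10 genes. *FURIN* (chromosome 15, 90868592 to 90883458), which cuts pro-B-type natriuretic peptide, pro-endothelin and many other precursors including that of TGF-β1, was at 49.69, 45.49 and 50.04 FPKM with TGF-β and 51.86, 55.05 and 50.92 FPKM with LIG. The groups did not overlap, with LIG above, as for 9.07% of tested genes, but the highest TGF-β and the lowest LIG library were close. Its log2 change of 0.12 ± 0.07 (SE; 95% interval -0.04 to 0.27) did not pass (limma adjusted p = 0.744). It passed in 1 of 19 alternatives, with library quality weights (limma adjusted p = 0.0487), where 1117 of 10695 genes were called higher. *ECE1* (chromosome 1, 21217247 to 21345572, minus strand), the enzyme that releases endothelin-1, was at 23.34, 20.43 and 23.39 FPKM with TGF-β and 23.91, 24.28 and 22.52 FPKM with LIG. The groups overlapped, and the change was 0.07 ± 0.07 (SE; 95% interval -0.10 to 0.24; limma adjusted p = 0.898). In both proteases the lowest TGF-β value and the lowest LIG value were in the libraries that stood apart.

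**Figure D3:**
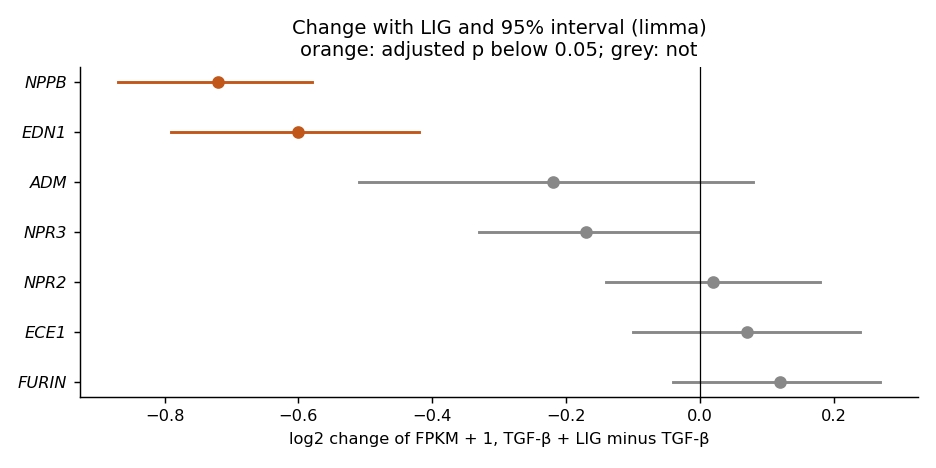
Log2 change of FPKM + 1, TGF-β with LIG minus TGF-β, with its 95% interval from limma for the 7 tested genes; orange marks adjusted p below 0.05. *NPPB* and *EDN1* lie at -0.72 and -0.60, and the intervals of *ADM*, *NPR2*, *ECE1* and *FURIN* include 0.

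Ordered by mean FPKM, a scale per gene length, the TGF-β group read *FURIN* (48.4), *ECE1* (22.4), *EDN1* (20.2), *NPPB* (10.98), *ADM* (3.28), *NPR2* (2.32), *NPR3* (1.29) and *EDNRA* (0.284), with *NPPA* and *EDNRB* near 0. *ECE1* and *EDN1* overlapped there, since the lowest *ECE1* library (20.43) was below the highest *EDN1* library (20.91), and so did *NPPA* and *EDNRB*. In the LIG group the first 8 kept this order, *ECE1* and *EDN1* no longer overlapped, and *ADM* and *NPR2* did. Among all 22701 genes by mean level over the 6 libraries, *FURIN* ranked 1129, *ECE1* 2601, *EDN1* 3423 and *NPPB* 5458, while *EDNRA* ranked 12729. The RNA of the secreted peptide endothelin-1 was thus at 66.2 to 80.8 times the FPKM of its receptor *EDNRA* in the TGF-β libraries and at 39.6 to 54.7 times in the LIG libraries.

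Ratios within a library set a peptide against the enzyme that processes it. *ECE1* over *EDN1* was 1.24, 0.977 and 1.13 with TGF-β and 1.77, 2.08 and 1.66 with LIG. *FURIN* over *NPPB* was 4.71, 4.04 and 4.50 with TGF-β and 8.202, 8.652 and 8.374 with LIG. Neither ratio overlapped between groups (exact permutation test, two-sided p = 0.1 each, the smallest that 3 against 3 libraries allow), and both differences follow from the falls of *EDN1* and *NPPB* already given. *NPPB* over *EDN1* was 0.561, 0.538 and 0.536 with TGF-β and 0.467, 0.544 and 0.447 with LIG, which overlap (exact permutation p = 0.3), so a different size of fall in the 2 peptides was not shown. *NPR3* over *NPR2* was 0.555, 0.584 and 0.530 against 0.524, 0.460 and 0.352, which did not overlap but nearly touched (exact permutation p = 0.1). The 6 ratios computed, p from 0.1 to 0.3, were not adjusted, as none can reach 0.05.

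**Figure D4:**
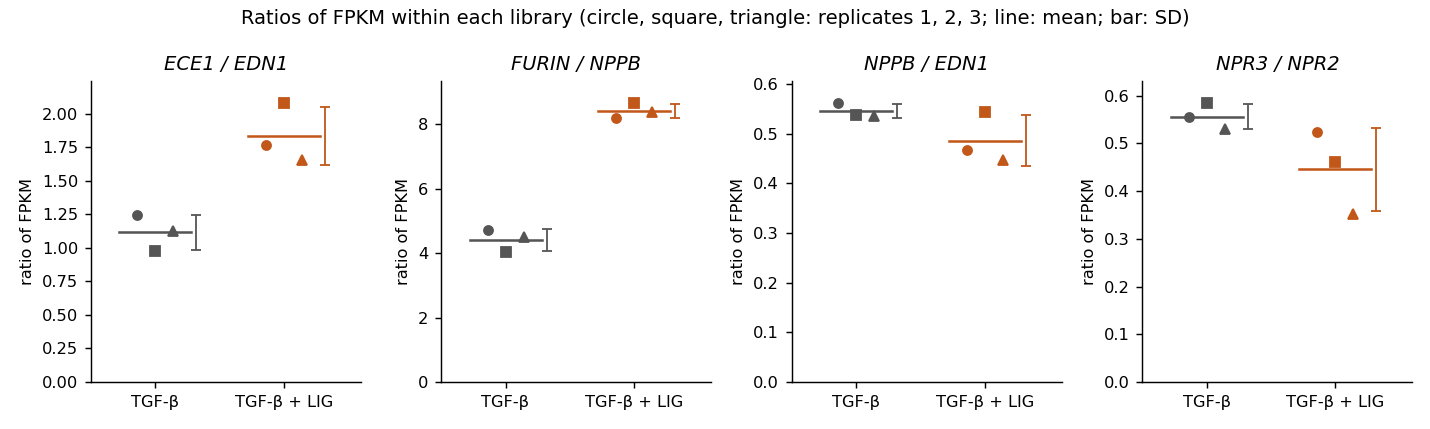
Ratios of FPKM within each library for 4 gene pairs, TGF-β in grey and TGF-β with LIG in orange, on axes from 0; symbols are replicates, lines means and bars SD (n = 3). *ECE1* over *EDN1* and *FURIN* over *NPPB* are higher in every LIG library, and *NPPB* over *EDN1* overlaps.

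The other genes of these pathways were taken from a list of 72 peptides, proteases, receptors and signalling genes, of which 66 were in the table and 39 were tested. None passed (limma, 0 higher and 0 lower of 39), where 0.692% of all tested genes did. The unadjusted p was below 0.05 for 4 of them, beside 8.41% of all tested genes, and voom on recovered fragments also called 0. The median log2 change was 0.02, beside 0.03 over all tested genes, with values from -0.28 to 0.17. Groups did not overlap in 8 of the 39, 2 with LIG below and 6 with LIG above, beside 15.8% of all tested genes (6.73% below and 9.07% above). This list too was chosen with earlier results of these data known, so its shares are descriptions.

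Of the 7 other peptides, 4 were in the table, none of them at a mean of 1 FPKM. *EDN3*, *ADM2* and *CALCB* were not in the table, so their levels are unknown. *NPPC*, which encodes C-type natriuretic peptide, the ligand of NPR2, had the highest mean of the other peptides and was at 0.0161 to 0.0406 FPKM. Of the other proteases, *PAM*, the enzyme that amidates adrenomedullin, had the highest mean and was at 22.8 ± 0.318 with TGF-β and 22.1 ± 0.604 FPKM with LIG (SD, n = 3; limma adjusted p = 0.937). *MME*, neprilysin, which degrades natriuretic peptides and endothelin-1, was at 6.67, 6.82 and 7.0 against 6.32, 6.14 and 5.61 FPKM. Its groups did not overlap, and it did not pass (log2 change -0.16, limma adjusted p = 0.581). *CORIN*, which cuts pro-atrial natriuretic peptide, was at 0 to 0.0196 FPKM. *MME*, *CORIN* and the genes of the next 2 paragraphs other than *RAMP2* and *GNAS* were named after their values were seen.

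*NPR1* and *CALCRL*, receptors for natriuretic peptides and adrenomedullin, were scarce, and the receptor partner *RAMP2* was not. *NPR1*, the guanylyl cyclase that B-type and atrial natriuretic peptides act on, was at 0.146, 0.114 and 0.103 FPKM with TGF-β and 0.103, 0.0305 and 0.102 FPKM with LIG. *CALCRL*, which carries the adrenomedullin signal together with a RAMP partner, was at 0.0040 to 0.0246 FPKM. *RAMP2*, that partner, was at 6.31, 7.06 and 5.02 against 3.89, 6.30 and 6.27 FPKM, with overlapping groups (limma adjusted p = 0.923). It was the single gene of the other receptors with enough FPKM to be tested.

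Downstream genes differed widely in level. *GNAS*, the stimulatory G protein subunit of cyclic AMP signalling, had the highest mean of all effectors and was at 167 ± 7.14 and 166 ± 14.7 FPKM (SD, n = 3; limma adjusted p = 0.988). The endothelin receptor-coupled G proteins *GNAQ* and *GNA11* were at 22.9 ± 0.781 and 20.1 ± 0.497 FPKM with TGF-β, against 21.2 ± 2.75 and 21.6 ± 0.961 FPKM in the LIG group. Neither passed (limma adjusted p = 0.857 and 0.763). *PLCB4*, a phospholipase C of that branch, was at 11.81, 10.57 and 11.19 against 10.02, 9.53 and 8.11 FPKM. It had the lowest p on the list and did not pass (log2 change -0.26, limma adjusted p = 0.410). Of the cyclic nucleotide genes, *PRKAR1A*, a regulatory subunit of the cyclic AMP kinase, had the highest mean and was at 97.4 ± 3.40 and 93.5 ± 5.93 FPKM (SD, n = 3; limma adjusted p = 0.929). On the cyclic GMP side, the kinase *PRKG1* was at 0 to 0.0121 FPKM and the soluble guanylyl cyclase subunit *GUCY1A1* at 0 in 5 libraries. The subunit *GUCY1B1* was higher, at 0.341 to 0.422 FPKM. The phosphodiesterases *PDE5A* and *PDE9A* were at 0.384 to 0.732 and 0.229 to 0.411 FPKM, and all of these genes were too low to be tested. *PDE2A*, a phosphodiesterase that cyclic GMP stimulates, was at 2.34, 2.18 and 2.32 against 2.52, 2.73 and 2.76 FPKM (limma adjusted p = 0.545).

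**Figure D5:**
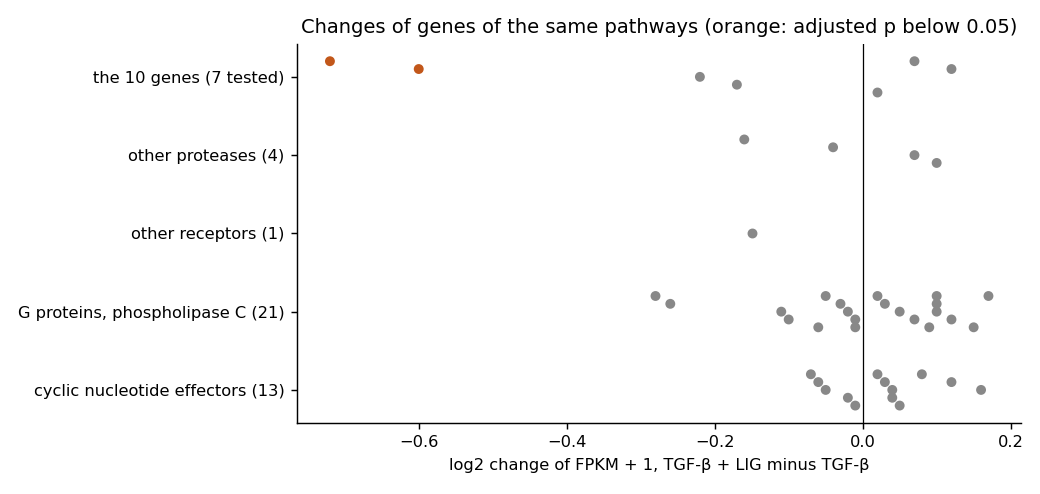
Log2 change of FPKM + 1, TGF-β with LIG minus TGF-β, for the 7 tested genes of the 10 and for 39 other tested pathway genes by role; each point is a gene and orange marks adjusted p below 0.05. The other pathway genes lie between -0.28 and 0.17, and *EDN1* and *NPPB* lie below them.

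For each called gene, the 3 genes most like it over the 6 libraries were found by the smallest root mean square difference between log2(FPKM + 1) values centred on each gene's mean. For *NPPB* these were *RGS4* (difference 0.043), *FILIP1L* (0.061) and *MEST* (0.064), all of them lower with LIG (limma adjusted p = 0.00452, 0.00552 and 0.00190). *RGS4*, a regulator of G protein signalling, was at 10.66, 10.46 and 10.59 FPKM with TGF-β and 6.42, 6.06 and 5.94 FPKM with LIG, close to *NPPB* in level too. For *EDN1* they were *LINC01638* (0.069), *AFAP1L2* (0.072) and *SCG2* (0.072), of which the last 2 were lower with LIG (limma adjusted p = 0.0290 and 0.00652) and *LINC01638* did not pass (0.0724). *SCG2*, which encodes the secretory granule protein secretogranin II, was at 12.43, 12.63 and 12.20 against 8.24, 7.88 and 8.25 FPKM. *LINC01638*, like *EDN1*, had its lowest value in LIG replicate 2 (1.82 FPKM, against 2.55 and 2.43). *EDN1* was 12th in likeness to *NPPB*, and *NPPB* 17th to *EDN1* (difference 0.101). All these profiles share the same 6 libraries and the same group difference, and likeness is a description.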

How the data were processed

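RNA of 6 libraries, 3 per group by their titles, was compared. The deposited values are labelled as FPKM, and their columns are named by group and replicate only. Of tools and builds, the submitters' processing notes list fastp, HISAT2 2.1.0, DESeq2 and GRCh38.p13 without roles; the counting tool, annotation and strand use are not given in the sources used here. Every value above 0 (114123) was a whole multiple of a gene and library step (within 0.00014 fragments), so fragments were recovered as the smallest whole numbers, which sum to at least 99.599% of each library total. Genes with mean FPKM of at least 1 (10695) were tested on log2(FPKM + 1), LIG minus TGF-β, with limma 3.58.1 in R 4.3.3 (group only, mean-variance trend, two-sided, Benjamini-Hochberg over all tested genes at 0.05), with 4 residual and 4.10 prior degrees of freedom. This scale understates changes of low genes. The fit was also run on simulated data with independent noise in each gene and library. No simulated library stood apart, so that run does not show how the fit behaves with such libraries. Positions are from GENCODE release 29 on GRCh38. Python 3.11.15, scipy 1.17.1 and matplotlib 3.10.9 were used.

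The 10 genes and the other lists were chosen with earlier results of these data known. Named were the 10 genes, pathway genes that pass, the most abundant other pathway gene among ligands, proteases, receptors and effectors (G protein and cyclic nucleotide genes together), and the 3 profiles most like each called gene. Alternatives were other pseudocounts (0.1, 0.5), filters (none, mean FPKM of at least 5), scalings (TPM, quantile, median), limma settings (no trend, robust, library weights), voom on fragments, a replicate block, and fits with libraries left out.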

Additional observations from a re-analysis of the deposited data

How the results depend on the processing

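Of the 10 genes, *NPPB* was lower in all 19 alternative fits, and *EDN1* was lower in size in all 19 but passed in 12. Besides the 5 fits without 1 library, *EDN1* missed the threshold with no filter on low values (adjusted p = 0.0978), where 22701 genes are tested. The count of the 10 genes called lower was then 1, and with library quality weights 1 gene was called higher. Over all genes the 20 higher and 54 lower became 5 and 9 without the filter, 1117 and 774 with library quality weights, and 209 and 288 without TGF-β replicate 2 and LIG replicate 3. With quantile normalization 32 genes were called higher. Leaving out each library in turn gave 6 to 24 genes higher, 5 to 69 lower, and 1 to 2 of the 10 genes lower. The sign of *NPR2*, which was never called, turned with median centring (-0.001) and without TGF-β replicate 2 and LIG replicate 3 (-0.02). Leaving out each library in turn, it ran from -0.02 to 0.06. Of the 39 other tested pathway genes, library quality weights called 4 higher and 3 lower, beside 1117 and 774 of 10695 genes. The fit without TGF-β replicate 2 and LIG replicate 3 called 1 higher, *ARHGEF12*, and 1 lower, *PRKCA*, beside 209 and 288 of all genes. The cause of these shifts was not tested.

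The labels state no pairing of same-numbered libraries. The correlations of their deviations from the group means were 0.47, -0.57 and -0.34 for replicates 1, 2 and 3. The highest such correlation between the groups, 0.68, joined the libraries that stood apart, TGF-β replicate 2 and LIG replicate 3. With such libraries in the data, these correlations cannot decide whether cultures were paired. With the replicate block, 9 genes were called higher and 13 lower, and 1 of the 10 genes lower: *NPPB* passed (adjusted p = 0.0317) and *EDN1* did not (adjusted p = 0.0950). Depth limits *NPPA* and *EDNRB*, with 0 to 6 fragments a library.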
